A study of Drosophila melanogaster with 7 samples.

Results

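Homeodomain factors are transcription factors that bind DNA through a conserved helical domain, and many of them are used in neurons to fix which type of neuron a cell becomes. A set of 39 such genes of Drosophila melanogaster, chosen by their FlyBase symbols and not by any measured value, was followed in cultured neurons. Earlier results of these data were known when the set was chosen. The set holds genes of the LIM, POU, Pax, sine oculis, Iroquois, cut and other homeobox classes and leaves out the Hox cluster. The Pax gene Poxn encodes a paired domain without a homeodomain, and is counted with the homeodomain genes below. Of the 39 symbols, 38 were found among the 17753 genes of the count table, and scro was not matched to any gene listed there. All values come from 7 control cultures of the strain w1118. Each was started from the dissociated central nervous systems of 3 late-stage larvae and kept for 7 days, so each culture pools animals and regions of the nervous system. The submitters label the cells primary neurons. There is 1 condition and no treated or mutant group, so the comparisons below are between genes within a library and between libraries. The study describes the cultures as biological replicates, and the sample labels do not say more of their origin. The p-values below test ratios between genes and correlations, with these 7 libraries as the units.

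In the fly nervous system, stem cells called neuroblasts inherit spatial identity from patterning genes such as vnd, ind and Dr, and their daughters keep or switch on combinations of homeodomain genes as they mature. LIM factors act in complexes with the adaptor Chi, POU factors carry a second DNA-binding domain beside the homeodomain, and Pax6 factors carry a paired domain. A single gene of this kind is commonly used by several unrelated neuron types, so the level of such a gene in RNA of a whole culture sums over all of them.

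The libraries held between 21178515 and 33891136 counts, at which 10 counts stand for 0.295 to 0.472 CPM, that is, counts scaled to a library total of 1000000. Log2 levels of the libraries correlated pairwise with r between 0.977 and 0.992 across genes, and no pair of the 21 was close enough to be a repeat of the same library (chi-square per degree of freedom 18.7 or more). All 6 neuron markers were detected and summed to between 2405 and 2927 CPM, and so were all 6 neuroblast markers, at 59.5 to 79.1 CPM, and all 7 glial markers, at 124 to 188 CPM. Arc1, a capsid-like gene, held 11.5% to 14.98% of the counts. The library of 26847346 counts stood apart. Its 11 photoreceptor genes summed to 1498 CPM, against 207 to 466 CPM in the other 6 libraries, and ninaE, the major rhodopsin, accounted for 525 CPM of that sum. It was also highest for yolk protein genes at 742 CPM, against 24.6 to 239 CPM, for muscle genes at 203 CPM, against 29.9 to 63.6 CPM, and for hemocyte genes at 66.7 CPM, against 29.7 to 35.1 CPM. Of the eye disc, hemocyte and muscle markers, the eye gene gl, the hemocyte genes He and NimC1 and the muscle gene up did not reach 10 counts in every library. For some results below, values without this library are given as well. The ranges and spreads of most single genes, and the signs of correlations, are given only with it.

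Of the 38 homeodomain genes, 35 were detected, that is, had at least 10 counts in every library, a limit that 53.4% of all listed genes passed. In 21 of them every library held at least 100 counts, a limit for which the share of all genes is not given here. Mean levels were at or above 10 CPM for 17 genes, between 1 and 10 CPM for 17 and under 1 CPM for 4. The median of log2(CPM + 1) was 3.13 over the 38 genes, 1.35 over all listed genes and 4.63 over detected genes. To compare genes with each other, CPM were divided by the kilobases (kb) of annotated exon. On that scale the 38 genes spanned 0.202 to 66.6 CPM per kb, a 330-fold range, with a median of 2.87 CPM per kb, against 12.5 CPM per kb over the detected genes. Only onecut, pdm3 and toy lay above the median of detected genes, and the median homeodomain gene stood at percentile 22.1. In RNA of mixed cells, fewer cells that use a gene and less RNA of it per cell cannot be told apart.

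**Figure D1:**
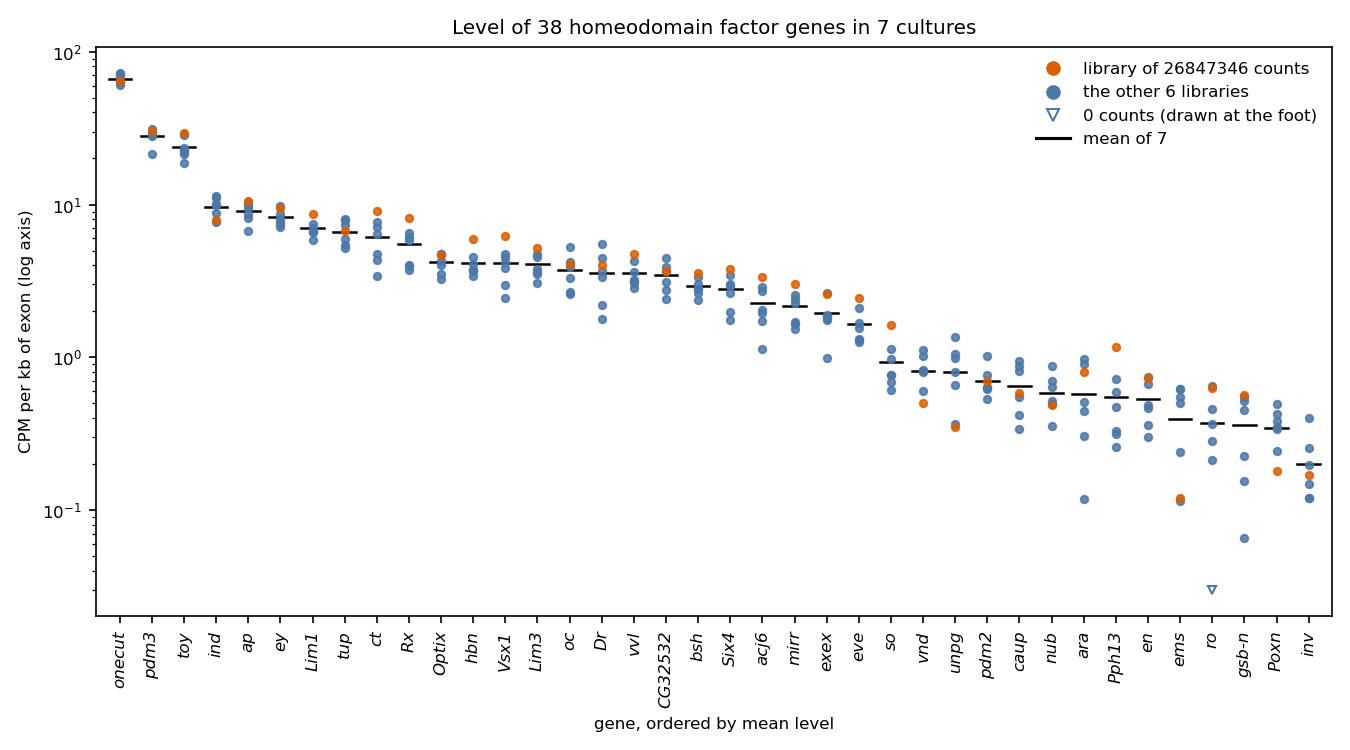
Level of each of the 38 homeodomain genes, in CPM per kb of exon on a log axis, with a point per library, the library of 26847346 counts in orange and a bar for the mean of 7. onecut stands clear at the top at 66.6 CPM per kb, pdm3 and toy follow, and the other genes grade into each other down to inv at 0.202 CPM per kb.

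The order of levels per kb is mostly not resolved between neighbours. Of the 37 steps between neighbouring genes in the order, 2 were larger than the sum of both SDs, the step from onecut to pdm3 and the step from toy to ind. The full order per kb, from high to low, is onecut, pdm3, toy, ind, ap, ey, Lim1, tup, ct, Rx, Optix, hbn, Vsx1, Lim3, oc, Dr, vvl, CG32532, bsh, Six4, acj6, mirr, exex, eve, so, vnd, unpg, pdm2, caup, nub, ara, Pph13, en, ems, ro, gsb-n, Poxn and inv. By class, the median per kb was 6.82 CPM for the 4 LIM genes, 4.33 for the 4 Pax genes, 3.92 for the 6 paired-like genes, 2.79 for the 3 sine oculis-class genes and 2.26 for the 5 POU genes. The 11 genes of the ANTP-like class had a median of 0.814 CPM per kb and the 3 Iroquois genes 0.649. These class medians are descriptions over few genes and were not tested.

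The cut class gave the most abundant gene of the set. onecut (FBgn0028996), a factor of differentiated neurons, had 408 CPM at its lowest, a median of 434 and 489.6 at its highest, with a mean of 449 ± 31.0 CPM (SD, n = 7). It lies on chromosome 4 at 598555 to 607649 on the minus strand (BDGP6.54, as for all coordinates here). Per kb it was 2.36 times as high as pdm3, stood at percentile 91.4 of detected genes and reached 66.6 ± 4.60 CPM per kb, beside 65.3 ± 5.82 CPM per kb for elav, the pan-neuronal RNA-binding protein, and 43.4 ± 2.99 for the active-zone gene brp. onecut also had the smallest coefficient of variation of the set at 6.91%.

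The second gene of the cut class, ct (FBgn0004198, X chromosome, 7608428 to 7678859, plus strand), sets the identity of external sensory organs and the complexity of dendrites. It had 42.6 CPM at its lowest, a median of 79.6 and 113 at its highest, with a mean of 76.1 ± 25.2 CPM (SD, n = 7). Its exons are long at 12443 bases, so per kb it came to 6.12 ± 2.03 CPM, which ranks 9 of 38. The libraries of 28537973 and 21178515 counts were lowest for ct at 42.6 and 54.2 CPM, and the library of 26847346 counts was highest. Without that library its coefficient of variation was 30.2%, beside 33.2% with it.

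Among the POU genes, pdm3 stood far above the other 4. pdm3 (FBgn0261588, chromosome 2R, 8327490 to 8396280, plus strand), which acts in olfactory receptor choice and axon targeting, had 115 CPM at its lowest, a median of 155 and 167 at its highest. Its mean was 152 ± 17.2 CPM (SD, n = 7), or 28.2 ± 3.19 CPM per kb. The low value was a single library, that of 21178515 counts, and the other 6 lay between 151 and 167 CPM. vvl, which with acj6 directs the dendrites of olfactory projection neurons, had 13.6, 15.5 and 22.8 CPM as lowest, median and highest value, and a level of 3.57 ± 0.71 CPM per kb. acj6, an identity factor of olfactory neurons, ranged more widely, with 5.01, 9.06 and 14.97 CPM. The neighbouring genes nub and pdm2, which mark a window of neuroblast time in the embryo, were low, at 3.08 ± 0.91 CPM for nub and 3.24 ± 0.73 CPM for pdm2.

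The 4 LIM genes were all detected, and no library held fewer than 343 counts of any of them. ap, which guides the axons of a set of interneurons and specifies peptidergic neurons, had 29.0, 41.2 and 45.6 CPM as lowest, median and highest value, and lies on chromosome 2R at 5706202 to 5727525 on the minus strand. Lim1 had 23.3, 26.8 and 34.4 CPM. tup and Lim3, which are combined in ventrally projecting motor neurons, had 22.1 ± 3.93 CPM for tup and 17.5 ± 3.35 CPM for Lim3 (SD, n = 7). On the length scale the 4 LIM genes lay close together, between 4.08 CPM per kb for Lim3 and 9.12 for ap.

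Motor neuron genes outside the LIM class were lower. exex, the HB9 factor of ventrally projecting motor neurons, had 2.35, 4.45 and 6.28 CPM as lowest, median and highest value, or 1.94 ± 0.56 CPM per kb. eve, which specifies dorsally projecting motor neurons, had 1.77, 2.17 and 3.43 CPM, or 1.66 ± 0.45 CPM per kb. An antisense RNA gene on the opposite strand, asRNA:CR43948, shares 16.7% of the exon bases of eve. Since no source used here gives the strand setting of the counting, reads of both cannot be told apart. Of the 38 genes, 36 share no exon base with another gene, and the remaining overlap was 3.55% of toy with a transposon fragment.

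Of the Pax6 pair, toy stood next after pdm3 in level per kb, and ey was lower. toy (FBgn0019650, chromosome 4, 989725 to 1007922, plus strand), which acts upstream of ey in the eye primordium and is kept in brain neurons including the mushroom body, had 73.1, 88.8 and 115 CPM as lowest, median and highest value. ey, a selector of eye fate that is also used in mushroom body and optic lobe neurons, had 26.4, 29.8 and 36.5 CPM. ey was among the steadiest genes of the set, with a coefficient of variation of 12.4%. The other 2 Pax genes were at the foot of the order. Poxn, which sets chemosensory rather than mechanosensory organ fate, had 0.849 ± 0.260 CPM (SD, n = 7) and gsb-n, the neuronal relative of gooseberry, was not detected in every library.

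The paired-like genes filled the middle of the order. Rx, a gene of the optic lobe and mushroom body, had 12.3, 19.2 and 26.8 CPM as lowest, median and highest value. Vsx1, which marks a spatial domain of the medulla primordium in the optic lobe, had 8.94, 15.4 and 22.5 CPM. oc, the orthodenticle gene of the anterior brain and of photoreceptors, had 13.0, 19.6 and 26.7 CPM. In these 3 genes the highest library was 2.05- to 2.51-fold above the lowest. hbn had 7.48 ± 1.57 CPM and CG32532 16.1 ± 3.35 CPM (SD, n = 7). Pph13, a factor of photoreceptor differentiation, was lowest in this class, with 0.489 CPM in its lowest library, a median of 0.897 and 2.20 in the library of 26847346 counts, its highest.

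Of the 3 sine oculis-class genes, Optix was the most abundant per kb and so the least. Optix, used in the eye and in a spatial domain of the medulla primordium, had 9.18, 11.9 and 13.3 CPM as lowest, median and highest value. Six4, known mostly from muscle and gonad mesoderm, had 3.25, 5.45 and 6.97 CPM. so, the partner of eya in eye specification, had 1.71, 2.12 and 4.51 CPM, the last in the library of 26847346 counts. eya itself was detected at 5.27 ± 1.72 CPM (SD, n = 7).

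The Iroquois genes pattern the dorsal eye and the thorax and lie in a cluster on chromosome 3L. mirr had 5.99, 8.87 and 11.8 CPM as lowest, median and highest value. caup had 1.46, 2.53 and 4.08 CPM. ara was low and uneven, with 0.350 CPM, or 10 counts, in the library of 28537973 counts, a median of 1.51 CPM and 2.86 CPM in its highest library.

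Of the 3 genes that divide the neuroectoderm of the embryo into columns, the intermediate gene ind and the dorsal gene Dr were more abundant per kb than the ventral gene vnd. ind, whose exons hold only 1126 bases, had 8.67, 11.2 and 12.8 CPM as lowest, median and highest value, or 9.58 ± 1.46 CPM per kb, which places it next after toy. Dr had 4.53, 9.39 and 14.1 CPM, or 3.57 ± 1.29 CPM per kb. vnd had 2.16, 3.54 and 4.81 CPM, or 0.814 ± 0.213 CPM per kb. The lowest library of vnd was that of 26847346 counts.

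The remaining genes of the ANTP-like class were low. bsh, a selector of lamina and medulla neuron types, was the most abundant of them at 5.93 ± 0.84 CPM (SD, n = 7) and varied little, between 4.79 and 7.23 CPM. unpg, a brain boundary gene, had 0.596, 1.35 and 2.31 CPM as lowest, median and highest value. The compartment genes en and inv had 1.502 ± 0.498 CPM for en and 1.19 ± 0.59 CPM for inv. ems, gsb-n and ro were not detected by the limit of 10 counts. ems, a brain and antennal patterning gene, had between 6 and 52 counts, gsb-n between 5 and 34, and ro, which specifies a pair of photoreceptor types, between 0 and 23. Only ro among the 38 genes had a count of 0, in the library of 25149314 counts, which allows a level of up to 0.119 CPM (3 counts, counting error only).

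Close relatives within the set were compared inside each library, as the log2 ratio of their CPM per kb with 0.1 CPM added, in 9 pairs. A two-sided exact sign-flip permutation test over the 7 libraries can give no p below 0.0156, and p-values were adjusted over the 9 pairs by the Benjamini-Hochberg method. toy exceeded ey in 7 of 7 libraries, with a log2 ratio of 1.51 ± 0.29 (SD, n = 7; range 1.13 to 2.01; exact adjusted p = 0.028). mirr exceeded both of its cluster neighbours in 7 of 7 libraries, ara by 2.03 ± 0.68 and caup by 1.75 ± 0.53 on the log2 scale (exact adjusted p = 0.028 each). so lay below both other genes of its class in 7 of 7 libraries, with log2 ratios of -1.57 ± 0.41 to Six4 and -2.17 ± 0.36 to Optix (exact adjusted p = 0.028 each). en exceeded inv in 6 of 7 libraries, by 1.44 ± 0.83 (exact adjusted p = 0.047), and the exception was the library of 28628408 counts at -0.07. These 6 pairs passed the threshold of 0.05.

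The other 3 pairs did not pass. nub over pdm2 had a log2 ratio of -0.29 ± 0.38, with a range of -0.77 to 0.20 (exact adjusted p = 0.123). ara over caup had -0.28 ± 0.87, with a range of -1.54 to 0.45 (exact adjusted p = 0.469), and Rx over hbn 0.36 ± 0.39, with a range of -0.27 to 0.77 (exact adjusted p = 0.1004). The length scale decided the call for en over inv, ara over caup and Rx over hbn. Without it, en over inv came to 0.35 (exact adjusted p = 0.334), whereas ara over caup came to -0.83 and Rx over hbn to 1.22 (exact adjusted p = 0.020 each). With 6 libraries the smallest exact p is 0.031, which 5 pairs at that p adjust to 0.056, so 0 pairs passed when the library of 26847346, 21178515, 25149314, 25710679 or 33891136 counts was left out, and the same 6 passed without that of 28628408. Without that of 28537973 counts, en over inv was lost (exact adjusted p = 0.080) and Rx over hbn passed at 0.46 (exact adjusted p = 0.047). For the 6 pairs first named, no library left out turned a ratio round.

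**Figure D2:**
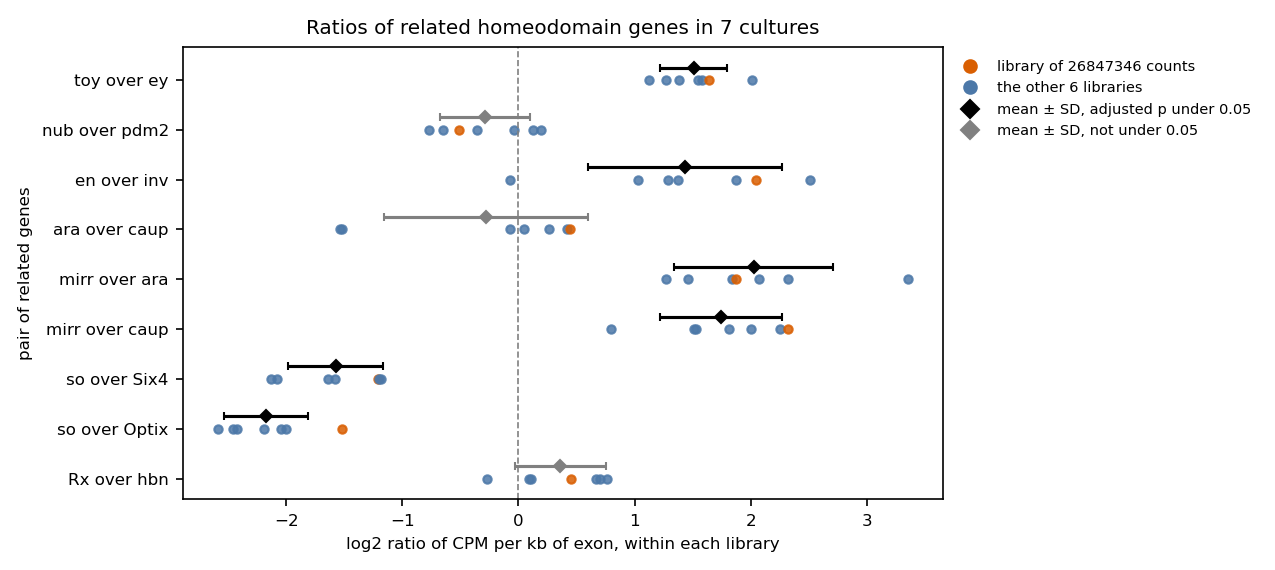
Log2 ratio of CPM per kb between related homeodomain genes, with a point per library, the library of 26847346 counts in orange, and diamonds with bars for the mean ± SD of 7, black where the exact adjusted p is under 0.05 and grey elsewhere. toy over ey and mirr over ara and caup lie to the right of 0 in all 7 libraries, so over Six4 and Optix to the left, and nub over pdm2, ara over caup and Rx over hbn straddle 0.

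Several of these relatives are genome neighbours. en and inv lie 14.3 kb apart on chromosome 2R, ara and caup 13.6 kb apart on 3L, Rx and hbn 17.6 kb apart on 2R, nub and pdm2 29.0 kb apart on 2L, and mirr lies 71.8 kb from caup. Across the 7 libraries, with p-values adjusted over the 9 pairs, no pair was correlated by the exact permutation test. mirr and ara had the highest Pearson r of 0.868 (exact p = 0.0125, adjusted 0.113) and a Spearman rho of 0.857 (exact p = 0.0238, adjusted 0.214), and leaving out the 2 libraries farthest from the mirr median gave r = 0.715. en and inv had r = -0.27 (exact p = 0.574) and toy and ey r = 0.042 (exact p = 0.925). By chromosome arm, 12 of the genes lie on 2R, 7 on 3L, 7 on X, 6 on 2L and 3 on 3R. The small chromosome 4 holds onecut, toy and ey, which ranked 1, 3 and 6 per kb, with a median of 23.8 CPM per kb, against medians of 0.395 to 3.72 on the other arms. This is a description of 3 genes and was not tested.

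The spread between cultures was read from edgeR as the biological coefficient of variation (BCV), the spread beyond counting noise as a share of the level, and set against the trend of BCV over level in all detected genes. Of the 35 detected homeodomain genes, 19 (54.3%) lay above the trend, against 27.2% of all 9476 detected genes. The difference was in genes of middle and high level. Between 5 and 20 CPM, 9 of 14 homeodomain genes were above the trend (64.3%), against 27.2% of all genes in that range, and at 20 CPM or more 5 of 8 (62.5%), against 21.2%. Under 5 CPM it was 5 of 13 (38.5%), against 42.8% of all genes there. In a list of cofactors and partners outside the set, 15 of 28 detected genes (53.6%) were above the trend as well. Several genes lay just above it, caup, vvl, mirr and Lim3 by 1.002- to 1.024-fold, and the median of BCV over trend was 1.014 in the homeodomain genes, against 0.905 in all detected genes. These shares were not tested. With each library left out in turn, 15 to 19 homeodomain genes were above the trend, and without the library of 26847346 counts 17 of 35 (48.6%), against 31.9% of all detected genes.

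ct stood farthest above the trend, with a BCV of 0.251 at a level where the trend was 0.128. Rx had a BCV of 0.242, against a trend of 0.177, acj6 0.290, against 0.223, and Dr 0.302, against 0.231. ara, Vsx1 and oc also exceeded their trend by 1.23- to 1.32-fold. By class, 5 of 6 paired-like genes, 3 of 4 LIM genes, 3 of 5 POU genes and 3 of 3 Iroquois genes were above the trend. Of the other detected genes, 3 of 9 in the ANTP-like class, 1 of 3 Pax, 1 of 2 cut and 0 of 3 sine oculis-class genes were. With so few genes a class, these counts are a description beside the 27.2% of all genes. onecut, ey and Lim1 lay below it. A single outlying library, by a gap to the next value above Dixon's critical share of the range, was seen in 1 of the 35 genes, pdm3, against 6.72% of all detected genes.

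**Figure D3:**
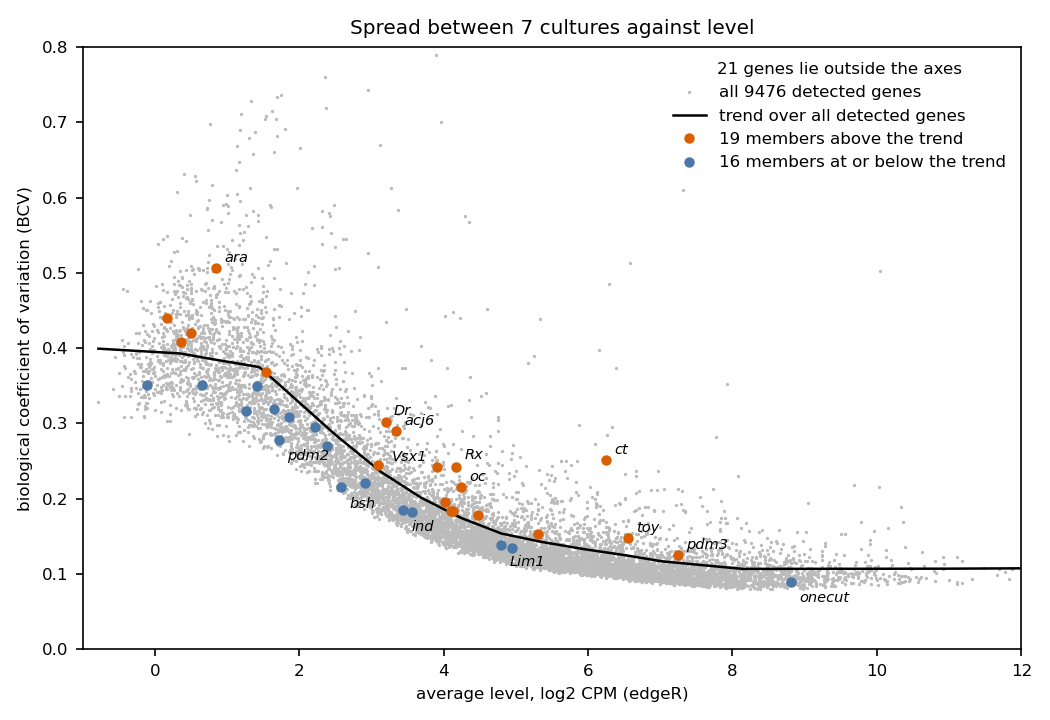
BCV between the 7 cultures against average level (log2 CPM), for all detected genes in grey, the trend over them as a black line, and the 35 detected homeodomain genes in orange above the trend and blue at or below it. ct lies well above the trend with a BCV of 0.251, and onecut lies at 0.090 under a trend of 0.107.

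The libraries did not take turns evenly at the extremes. The library of 26847346 counts, in which photoreceptor, yolk protein, muscle and hemocyte genes were highest, was also the highest library for 16 of the 35 detected homeodomain genes (45.7%), against 23.1% of all detected genes. These were toy, ap, Lim1, ct, Rx, hbn, Vsx1, Lim3, vvl, bsh, Six4, acj6, mirr, eve, so and Pph13. The median homeodomain gene was 1.28 times as high there as in the median of the other 6 libraries, against 1.02 for the median detected gene. Pph13 was 2.89 times as high, so 2.12 times, eve 1.71 times and acj6 1.69 times. 3 of 35 genes (8.57%) were lowest there, against 16.4% of all detected genes. These were unpg at 0.394, Poxn at 0.497 and vnd at 0.605 times the median of the others. The library of 28537973 counts was lowest for 13 of 35 (37.1%), among them onecut, ct, acj6, Rx, Vsx1 and ara, against 17.1% of all detected genes. The library of 25149314 counts was highest for 0 of 35, against 10.4% of all detected genes. There 28 of 35 lay below their own mean of 7 libraries, beside 24 each in those of 25710679 and 28537973 counts and 21 in that of 21178515. These means include the library of 26847346 counts, and the share of all genes below their mean is not given here. In the library of 28537973 counts the 6 neuron markers also had their lowest sum, at 2405 CPM, against 2512 to 2927 CPM in the others. The part of photoreceptor or other non-neuronal RNA, and of the share of neuronal RNA, in these differences was not tested.

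**Figure D4:**
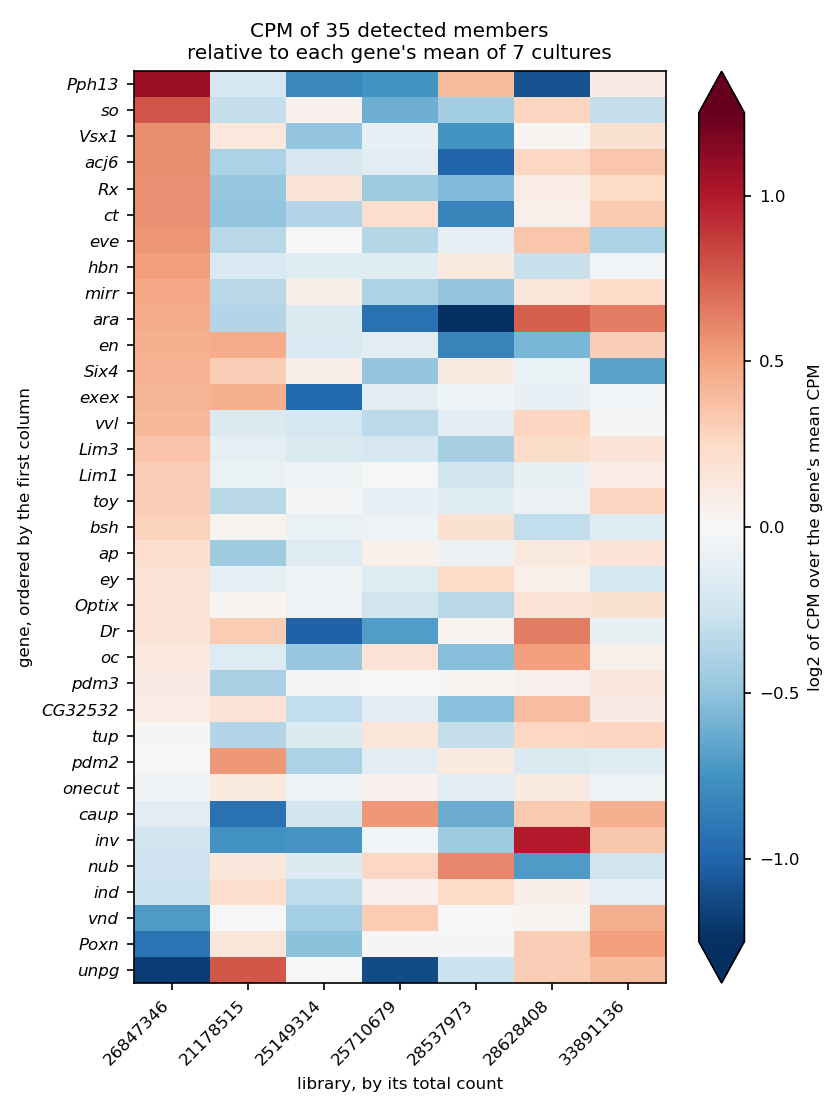
Log2 of CPM over the mean of 7 for the 35 detected homeodomain genes, with libraries in columns named by their total count and genes ordered by the library of 26847346 counts in the first column. Red runs down most of the first column, from Pph13 at 1.08 to few genes below 0 at its foot, where unpg is lowest. Below their mean lie 28 of 35 genes in the column of 25149314 counts and 24 each in those of 25710679 and 28537973 counts. These means include the first column, and the share of all genes below their mean is not given here. In the column of 28537973 counts ara is lowest.

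Whether the homeodomain genes followed the photoreceptor RNA was read from correlations of log2(CPM + 1) with the mean log2(CPM + 1) of the 11 photoreceptor genes over the 7 libraries, for all 9476 detected genes. By the exact two-sided permutation test over all pairings of the 7 libraries, with Benjamini-Hochberg adjustment, 0 of 35 homeodomain genes and 0% of all genes passed. At an unadjusted p under 0.05 there were 4 of 35 by Pearson's r, against 9.89% of all genes, and 2 of 35 by Spearman's rho, against 6.51% of all genes. The 4 by r were vvl, hbn, Pph13 and toy, and the 2 by rho were vvl and pdm3. The sign of r was positive for 28 of the 35 (80.0%), against 48.0% of all detected genes, and the median r was 0.448, against -0.027 over all genes, a description over libraries of which the one of 26847346 counts holds the highest score. pdm3 had rho = 0.893 (exact p = 0.0123, adjusted 0.712) and r = 0.582 (exact p = 0.158). vvl had r = 0.861 (exact p = 0.00893, adjusted 0.437) and rho = 0.857 (exact p = 0.0238), and r was 0.581 when the 2 libraries farthest from the median score were left out. Pph13 had r = 0.815 (exact p = 0.0236, adjusted 0.461) and rho = 0.643 (exact p = 0.139), and r was 0.394 without those 2. Without the same 2, r went from 0.842 to 0.433 for hbn, from 0.799 to 0.714 for toy and from 0.582 to 0.771 for pdm3. Without the library of 26847346 counts, 0 of 35 had an unadjusted p under 0.05 by r, against 6.51% of all genes, and without that of 28537973 counts 9 of 35 had one, against 11.5% of all genes. After adjustment 0 of 35 passed in both.

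The same correlation with the 6 neuroblast markers, read because several of these genes are also used in neuroblasts, gave 0 of 35 at an adjusted p under 0.05, against 0% of all genes, and 0 of 35 at an unadjusted p under 0.05 by r, against 4.53%, and by rho, against 4.802%. Without the library of 28537973 counts it was 4 of 35 by r, against 6.16%, and 0 of 35 after adjustment. The neuroblast score ranged from 3.04 to 3.57, against 3.00 to 6.41 for the photoreceptor score, which limits what such a relation could show. In sum the neuroblast markers lay between 59.5 and 79.1 CPM, and single ones varied more, wor from 3.18 to 11.2 CPM. Against ct, the gene with the most excess spread, 6 of the 34 other genes had an unadjusted exact p under 0.05, against 15.7% of all genes, and 0 of 34 passed after adjustment, against 0% of all genes. Closest to ct was acj6, with r = 0.929 (exact p = 0.00357, adjusted 0.170), rho = 0.964 (exact p = 0.00278, adjusted 0.182) and, leaving out the 2 libraries farthest from the ct median, r = 0.789. Lim1 followed with r = 0.882 (exact p = 0.00456, adjusted 0.170). Both genes share with ct its highest library and its lowest.

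Cofactors and other homeodomain or partner genes that are not in the set were read from a list of 41 genes. Of these 28 were detected, and the list median of log2(CPM + 1) was 2.70, with a median of 2.10 CPM per kb. The LIM adaptor Chi had 75.2 ± 5.95 CPM, its partner Ssdp 107 ± 8.22 CPM and the LIM-only gene Bx 28.6 ± 1.77 CPM (SD, n = 7). All 3 were steady between libraries, as was the corepressor gro at 122 ± 6.18 CPM. In CPM not scaled by length, nerfin-1, a zinc-finger factor of newborn neurons, was higher at 523 ± 70.5 CPM. So were pros, which ends self-renewal in neuroblast daughters, at 1292 ± 309 CPM, and the zinc-finger homeodomain gene zfh2 at 201 ± 19.1 CPM. Per kb, nerfin-1 at 163 CPM and pros at 51.9 CPM stayed above Chi at 33.5, gro at 27.4 and Ssdp at 19.3 CPM. On that scale zfh2 lay below these 3, at 16.2 CPM per kb. Of further homeodomain genes, NK7.1 had 84.7 ± 6.03 CPM and Ptx1 26.0 ± 4.59 CPM. The 13 genes not detected were eyg, toe, al, C15, B-H1, lms, OdsH, gsb, prd, lbe, lbl, H2.0 and bap.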

How the data were processed

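RNA of 7 control cultures of primary Drosophila neurons (w1118) was examined. The values are counts of reads on the exons of each gene, which the authors obtained with featureCounts and deposited per library without normalization. The submitters' processing notes name the genome build dm6, and no source used here states the aligner, strand setting, annotation or handling of reads that match several genes. The sample labels describe ribosome-depleted stranded total RNA, the methods a stranded mRNA kit. Column names give the condition and a number. No source used here states whether that number is the culture number of the sample titles, so libraries are named by their total count. A further 8 columns of per-sample values match no sample used here and were left out.

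The homeodomain genes, marker lists and partner list were chosen with earlier results of these data known. All genes of the set are named, with genes of the partner list, the marker lists and Arc1. Symbols, coordinates and exon lengths (union of exons) were taken from Ensembl release 115 (assembly version BDGP6.54), where 17626 of the 17753 identifiers had a match, and the others hold 0.779% of the counts. From the deposited counts, CPM were computed on library totals, with a pseudocount of 1 CPM for log2 levels. BCV came from edgeR tagwise dispersions with TMM factors and an intercept only, over genes with at least 10 counts in every library. Pairs were tested by sign flips (128), and correlations by permuting all pairings of libraries, all exact and two-sided with Benjamini-Hochberg adjustment. The steps were tested on simulated data. Alternatives were 4 other detection limits, TMM and DESeq2 factors, totals without Arc1, other pseudocounts, the longest transcript or no length, Spearman's rho, a looser filter and each library left out. The correlation with ct, the pair correlations, the BCV by level and the counts of highest and lowest libraries were added after values had been seen. Software was edgeR 4.0.16 and DESeq2 1.42.0 under R 4.3.3, and scipy 1.17.1, pandas 2.3.3 and numpy 2.4.6 under Python 3.11.15.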

Additional observations from a re-analysis of the deposited data

Results flagged for a closer look

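With 7 libraries, a value was read as outlying when its gap to the nearest of the others exceeded Dixon's critical share of the whole range. Chance gives about 1 such value in 20, and here 4 of 50 measures had one, 1 of the 38 homeodomain genes and 3 of the 12 list scores. The 3 list scores were outlying in the same library, and the lists were chosen with earlier results of these data known. The 4 are therefore not independent values to set against that rate. pdm3 was low in the library of 21178515 counts, at 115 CPM, against 151 to 167 CPM in the others. The score of a marker list averages log2(CPM + 1) over its genes. In the library of 26847346 counts, the muscle score was 4.13, against 2.08 to 2.78 in the others, the hemocyte score 2.90, against 1.96 to 2.28, and the eye disc score 2.99, against 2.25 to 2.47. The muscle gene up, the hemocyte genes He and NimC1 and the eye disc gene gl were under 10 counts in at least 1 library. The photoreceptor score was also highest in that library at 6.41, against 3.00 to 4.81, with a gap below the limit. Glial, fat body, ring gland and wing disc scores had no outlying library, and 3 of the 6 ring gland symbols were found. Of these 3 genes 1 was detected, and of the 5 fat body genes 1, so both scores rest largely on genes near the floor. In sum, glial genes (188 CPM, against 124 to 158) and fat body genes (17.6 CPM, against 3.26 to 9.41) were highest in the library of 26847346 counts. Ring gland genes were lowest there, and wing disc genes were neither. The part of these other cells in the homeodomain levels was not tested.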

How the results depend on the processing

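No paired analysis was possible because there is 1 condition. Of the 35 genes detected, 21 had at least 100 counts in every library (share of all genes not given). Under the 3 other detection limits and with each library left out, the number detected stayed within 1.5 times of 35. TMM and DESeq2 factors moved none of the 38 mean levels by more than the SD between libraries. Totals without Arc1 raised 8 of the 38 by more than that, onecut to 519 CPM and pdm3 to 176 CPM among them. The median level, the BCV count, the outlying library and the counts of correlations past the adjusted threshold kept their side under all alternatives run, except that the BCV count ranged from 15 to 19 with a library left out. The number of pairs past the threshold was 0 to 6 with each library left out, where 6 libraries limit the smallest p. Without length scaling, 7 pairs passed, with en over inv lost and ara over caup and Rx over hbn gained. Without the library of 28537973 counts, Rx over hbn passed at a log2 ratio of 0.46 (exact adjusted p = 0.047) and en over inv did not (exact adjusted p = 0.080). ara over caup, which passed with neither pseudocount, turned to 0.024 with a pseudocount of 1 CPM, a constant close to the CPM measured for both genes. Genes near 10 counts per library carry the most counting noise, and ratios or spreads of ara, inv, en, Pph13 and Poxn rest on few reads.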
